A study of Mus musculus with 4 samples.

Results

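The interleukin-6 family was followed through 10 genes: the ligand genes Il6, Il11, Lif and Osm, the receptor genes Il6ra, Il6st, Lifr and Osmr, the transcription factor gene Stat3 and the feedback inhibitor gene Socs3. They were taken from a read count table by gene name, all 10 were found among its 54532 genes, and all 10 were among the 15993 genes that passed the filter on low counts. RNA came from Dll1-mCherry-positive cells of C57BL/6 mammary tumors of the MMTV-PyMT model, in which a mammary tumor virus promoter drives the polyoma middle T oncogene in mammary epithelium. PyMT-Dll1+ cells had been injected into the mammary fat pad. The irradiated group, 2 libraries, came from tumors given targeted radiation at day 30, and the unirradiated group, 2 libraries, from tumors without it. Both groups carry the oncogene and the reporter for Dll1, a Notch ligand gene, and both were enriched for tumor cells with antibodies against CD45, CD31 and TER119 before the mCherry-positive cells were sorted. What day 30 is counted from is not stated. Whether a group's libraries stem from different animals is not stated, so each p-value reflects only the spread among these 4 libraries, and that spread may be technical.

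Ligands of the family bind a receptor of their own and then share gp130, the protein of Il6st, to pass on the signal. Interleukin-6 and interleukin-11 use gp130 alone for signaling, next to the binding receptors Il6ra and Il11ra1, while leukemia inhibitory factor (Lif) pairs gp130 with Lifr and oncostatin M (Osm) pairs it with Osmr. Janus kinases bound to these receptors phosphorylate STAT3, which enters the nucleus and induces, among other genes, Socs3, whose protein binds gp130 and the kinases and shuts the signal down. In the mammary gland Lif and STAT3 are known for starting the involution that follows lactation.

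Library sizes were alike, with summed counts of 19931303 and 18903631 in irradiated 1 and 2, against 20817997 and 16811888 in unirradiated 1 and 2. The irradiated pair was far apart and the unirradiated pair was not, with a biological coefficient of variation of 39.2% against 5.93%. The codes in the sample titles follow the treatment, so radiation and any step those codes stand for cannot be told apart. Epithelial markers were high in every library, with 11 genes summing to 12120 and 9755 CPM (counts scaled to a common library size) in the irradiated libraries, against 11628 and 11158 CPM in the unirradiated ones. Markers of other cells were highest in irradiated 2: the 12 macrophage markers summed to 95.7 and 771 CPM in irradiated 1 and 2, against 24.6 and 21.2 CPM in the unirradiated libraries. Results that rest on 1 irradiated library are therefore given for each of them. In bulk RNA, fewer cells of a type and less RNA per cell cannot be told apart.

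The stretches of DNA in front of the Il6, Il11 and Lif start sites are shown because these ligand genes share a motif, and that of Socs3 because it is the STAT3 target of the family. The windows are from RefSeq on GRCm38.p6, the build also called mm10, and hold up to 250 bases before an annotated start, written 5′ to 3′ on the gene's strand and ended where an annotated exon begins. Capitals mark the AP-1 motif TGANTCA in the ligand genes and the STAT motif TTCNNNGAA in Socs3.
Il6 (chr5:30012864-30013113, plus strand): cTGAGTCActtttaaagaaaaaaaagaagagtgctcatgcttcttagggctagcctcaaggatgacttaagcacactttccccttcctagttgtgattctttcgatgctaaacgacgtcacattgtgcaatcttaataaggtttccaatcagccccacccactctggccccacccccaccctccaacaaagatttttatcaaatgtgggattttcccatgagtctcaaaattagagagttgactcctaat
Il11 (chr7:4778142-4778391, minus strand): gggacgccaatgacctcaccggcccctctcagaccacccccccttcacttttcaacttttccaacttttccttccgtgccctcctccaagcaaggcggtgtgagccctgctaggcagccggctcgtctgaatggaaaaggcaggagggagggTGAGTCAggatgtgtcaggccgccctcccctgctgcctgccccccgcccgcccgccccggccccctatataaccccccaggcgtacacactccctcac
Lif (chr11:4257318-4257556, plus strand): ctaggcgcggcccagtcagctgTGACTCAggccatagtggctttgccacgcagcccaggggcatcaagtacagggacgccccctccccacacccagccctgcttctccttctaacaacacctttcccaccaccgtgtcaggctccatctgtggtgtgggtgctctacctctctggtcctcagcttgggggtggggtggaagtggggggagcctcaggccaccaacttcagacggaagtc
Socs3 (chr11:117969452-117969616, minus strand): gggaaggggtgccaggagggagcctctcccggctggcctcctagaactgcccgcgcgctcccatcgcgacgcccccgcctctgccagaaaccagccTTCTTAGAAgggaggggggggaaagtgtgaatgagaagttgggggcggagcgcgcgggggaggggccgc

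Of the 10 members 9, all but Osm, were matched to a window, with 11 windows in all, since Il11 and Lifr have 2 start sites each. TGANTCA, which reads the same on both strands, was found in 3 of the 11 windows, once each for Il6, Il11 and Lif, and in 6.75% of all 32851 windows. The Il11 match is in the window printed above, which lies within the span of the gene in the deposited table. The other Il11 window, directly before that span, has no match. TTCNNNGAA, also the same on both strands, was found in 1 of the 11, that of Socs3, against 7.02% of all windows. The Socs3 match TTCTTAGAA begins 154 bases before the start site that RefSeq gives, and that window lies within the span of the gene in the deposited table. The bases just after that window were not found in a GENCODE M21 transcript of Socs3. The stretch before the span of Socs3 was not searched. A loose NF-kB-like pattern, searched on both strands, was found in 8 of the 11 and in 45.8% of all windows. These are matches of letters and say nothing about binding.

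Osm and Lif lie next to each other on chromosome 11 of mm10, Osm from 4236420 to 4241026 and Lif from 4257557 to 4272514, with 16.5 kb and no gene of the table between them. Their receptor genes share a chromosome too, Osmr from 6813577 to 6874969 and Lifr from 7090614 to 7197489 on chromosome 15, 215.6 kb apart with 1 gene of the table between them. Stat3 (100885098 to 100939540) and Socs3 (117966079 to 117970047) are further along chromosome 11. Il6 lies on chromosome 5 from 30013114 to 30019981, Il11 on chromosome 7 from 4772373 to 4782857, Il6ra on chromosome 3 from 89864059 to 89913196 and Il6st on chromosome 13 from 112464070 to 112510086. The library kit keeps no strand. Of the exon bases of Il6ra 2.8% are shared with the antisense gene Gm42809, and of those of Stat3 0.756% with Stat5a. The other 8 members share none in GENCODE M21.

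Per kilobase of gene length the inhibitor and the ligand Lif stood above most genes of the cells. In the unirradiated libraries Socs3 was at 311 and 320 CPM per kilobase, above 99.2% of tested genes, Lif was at 98.1 and 99.8 CPM per kilobase, above 97.5%, and Stat3 at 70.4 and 74.7 CPM per kilobase, above 96.5%. Osmr was at 14.8 and 16.2 CPM per kilobase, Il6st at 8.72 and 9.22, Lifr at 2.75 and 2.91 and Il6ra at 1.16 and 1.15. The ligands other than Lif were low, Il6 at 1.98 and 1.19 CPM per kilobase, Il11 at 0.359 and 0.528 and Osm at 0.106 and 0. No neighbors in this order overlapped between the unirradiated libraries, although Il6 in unirradiated 2, which rests on 49 counts, lay close to Il6ra. In the irradiated libraries Socs3 was again the highest, at 263 and 388 CPM per kilobase, and Il11 the lowest, at 0.878 and 0.636. Between them, Lif overlapped Stat3, and Osmr, Il6st, Il6, Lifr and Osm each overlapped the next in the order, which ends with Il6ra. The order of these neighbors therefore cannot be read from that group. Lif and Stat3 did lie above Osmr and all genes after it without overlap, and Osmr and Il6st above Lifr, Osm and Il6ra. Il6ra lay above Il11 without overlap.

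The comparison asked how the family's RNA in Dll1-positive tumor cells differed with radiation. No member passed the genome-wide test: edgeR's quasi-likelihood test with Benjamini-Hochberg adjustment called 0 of 10 members, against 0% of 15993 genes higher and 0% lower. Limma-voom likewise called none, with 0% each way over all genes. Before adjustment 1 member, Osm, had p under 0.05, where 6.82% of all genes did so on the higher side and 2.44% on the lower side, 9.25% together. Without a filter edgeR called 3 members higher, Il6, Osm and Il6st, and none lower, where 4.86% of genes were called higher and 0.381% lower. DESeq2 on the filtered genes called Osm higher and none lower, while over all genes it called 2.73% higher and 0.35% lower. The groups did not overlap for 4 of 10 members: Il11, Osm and Il6ra, 3 of 10, were higher in each irradiated library than in any unirradiated one, and Stat3, 1 of 10, was lower. Over all genes the shares were 20.3% above and 20% below, so these counts lie near the background. Osm passed the filter through the irradiated libraries only, so the filter fixed its place above. The median log2 fold change was 0.27 over the members and 0.00396 over all tested genes.

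The ligand genes had fitted log2 fold changes from -0.15 for Lif to 5.10 for Osm, with no call by edgeR. Il6, an inflammatory cytokine made by many stromal and immune cells, was at 2.72 CPM in irradiated 1, while irradiated 2 had 27.5 CPM, against 4.81 and 2.89 CPM without radiation. It was high in irradiated 2 alone, while irradiated 1 lay just below both unirradiated libraries, so the groups overlapped (log2 fold change 1.96, SE 1.05, edgeR adjusted p = 0.65). Without irradiated 2 the log2 fold change was -0.53. The counts behind these values were 54 and 515 in the irradiated libraries, against 100 and 49 in the unirradiated ones, and the 95% exact Poisson intervals of the unirradiated libraries did not overlap.

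Osm, the oncostatin M gene, mainly expressed by myeloid and T cells, was at 0.958 and 8.32 CPM with radiation, against 0.241 and 0 CPM without it. The irradiated values rest on 19 and 156 counts and the unirradiated ones on 5 and 0. The groups did not overlap, but the filter fixed this, so the lack of overlap is not a result. The 95% exact Poisson intervals cover counting error only. They ran from 0.577 to 1.497 CPM in irradiated 1 and from 0.0781 to 0.561 CPM in unirradiated 1. The count of 0 in unirradiated 2 allowed up to 0.218 CPM. The fitted log2 fold change was 5.10 (SE 1.53), a value that depends on the prior count at such low levels and was 9.42 without unirradiated 1 and 2.80 without irradiated 2, and the adjusted p was 0.492 by edgeR and 0.0123 by DESeq2.

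Lif was the abundant ligand, at 500.0 CPM in irradiated 1, while irradiated 2 had 275 CPM, against 427 and 434 CPM without radiation. The irradiated libraries lay on opposite sides of a narrow unirradiated pair (log2 fold change -0.15, SE 0.29, edgeR adjusted p = 0.922). Left to irradiated 1 alone the log2 fold change was 0.20. Il11, a cytokine gene of stromal and epithelial cells, was at 1.77 and 1.28 CPM with radiation, against 0.722 and 1.06 CPM without it. Its groups did not overlap, but it rests on 35 and 24 counts against 15 and 18, and the log2 fold change of 0.77 (SE 0.49) had an edgeR adjusted p of 0.711.

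The receptor genes had fitted log2 fold changes from -0.19 for Osmr to 0.50 for Il6ra, with no call by edgeR. Il6st, the shared gp130 gene, was at 99.0 CPM in irradiated 1, while irradiated 2 had 181 CPM, against 96.8 and 102 CPM without radiation. Irradiated 1 lay within the unirradiated pair and irradiated 2 far above it (log2 fold change 0.49, SE 0.29, edgeR adjusted p = 0.685), and without irradiated 2 the log2 fold change was -0.0215. Il6ra, which gives a cell its own interleukin-6 binding, was at 12.7 and 15.6 CPM with radiation, against 10.1 and 9.91 CPM without it. Both irradiated libraries lay above, by 0.50 on the log2 scale (SE 0.21, edgeR adjusted p = 0.556).

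Osmr, the oncostatin M receptor gene, was at 191 and 139 CPM with radiation, against 179 and 197 CPM without it. Irradiated 1 lay within the unirradiated pair and irradiated 2 below it (log2 fold change -0.19, SE 0.18, edgeR adjusted p = 0.831). Lifr, the leukemia inhibitory factor receptor gene, was at 26.6 and 35.6 CPM with radiation, against 29.6 and 31.3 CPM without it. Its irradiated libraries lay on either side of the unirradiated pair, with a log2 fold change of 0.0299 (SE 0.18, edgeR adjusted p = 0.979).

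Stat3 was at 638 and 532 CPM with radiation, against 670.5 and 711 CPM without it. Both irradiated libraries lay below both unirradiated ones, with group means of 585 ± 75.1 CPM against 691 ± 28.9 CPM (SD, n = 2 each) and a log2 fold change of -0.24 (SE 0.15, edgeR adjusted p = 0.718). Socs3, its feedback target, was at 761 CPM in irradiated 1, while irradiated 2 had 1120.4 CPM, against 899 and 924 CPM without radiation. The irradiated libraries lay on opposite sides, and over the pair the log2 fold change was 0.0458 (SE 0.22, edgeR adjusted p = 0.972).

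**Figure D1:**
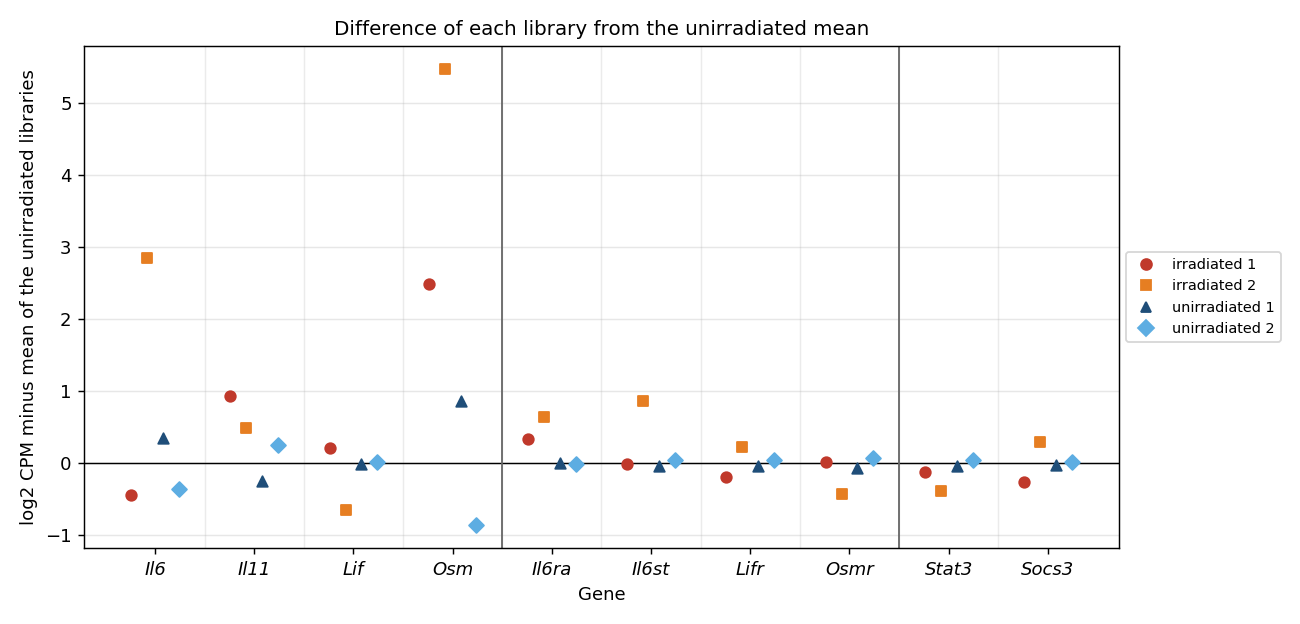
Log2 CPM of each library minus the mean of the unirradiated libraries, for the 10 family members ordered by role. Points are single libraries. Irradiated 2 lies at 5.47 for Osm and 2.84 for Il6, and the irradiated libraries lie on opposite sides of 0 for Il6, Lif, Il6st, Lifr, Osmr and Socs3, by under 0.03 on one side for Il6st and Osmr.

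Each irradiated library was also set alone against the unirradiated pair, in edgeR fits that assume the lone library to vary like that pair. With irradiated 2, in the fit without irradiated 1, 5 members were called higher and 3 lower, where 15.9% of all tested genes were called higher and 7.95% lower. The higher members were Il6 (log2 fold change 2.79), Osm (5.89), Il6st (0.85), Il6ra (0.63) and Socs3 (0.28), and the lower ones Lif (-0.66), Osmr (-0.44) and Stat3 (-0.39). With irradiated 1, in the fit without irradiated 2, 1 member was called higher, Osm at 2.80, and 1 lower, Socs3 at -0.27, where 11.9% of all genes were called higher and 13.9% lower. Socs3 was thus called in opposite directions in the irradiated libraries, at edgeR adjusted p = 0.0198 upward and 0.026 downward. Between the irradiated libraries themselves, irradiated 2 lay over 2-fold above irradiated 1 for Il6 and Osm, with log2 differences of 3.28 and 2.99, where 11.5% of all genes did so and 3.92% lay over 2-fold below. The difference was -0.86 for Lif and 0.87 for Il6st.

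Ratios between members within a library do not depend on how libraries are scaled. Per kilobase, Osmr exceeded Il6st by a factor of 1.77 in irradiated 1, against 1.69 and 1.76 in the unirradiated libraries, while in irradiated 2 the ratio was 0.705. Socs3 over Stat3 was 3.93 in irradiated 1 and 6.94 in irradiated 2, against 4.42 and 4.28. Lif over Il6 was 102 and 5.6 in the irradiated libraries, against 49.5 and 83.8 in the unirradiated ones. Lifr over Il6st was 0.277 and 0.202 with radiation, against 0.315 in each library without it, Osmr over Lifr 6.37 and 3.49, against 5.38 and 5.59, and Il6ra over Il6st 0.164 and 0.11, against 0.133 and 0.124. In each of the 6 ratios but Il6ra over Il6st, irradiated 1 was the closer of the irradiated libraries to the unirradiated mean, and irradiated 2 stood furthest out.

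**Figure D2:**
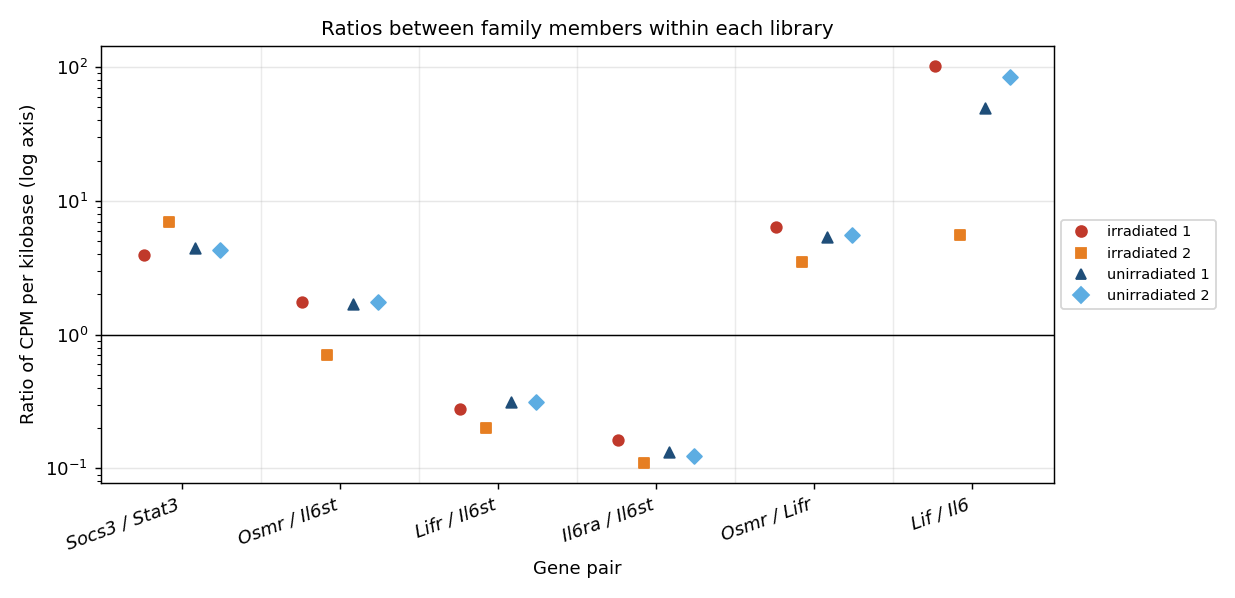
Ratio of CPM per kilobase between pairs of family members within each library, on a log axis, with 1 point per library and a line at a ratio of 1. In irradiated 2 Osmr over Il6st lies at 0.705, below the line, while the other 3 libraries lie above it, and Socs3 over Stat3 is highest at 6.94.

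Markers of cells that are known to express Il6 and Osm were also highest in irradiated 2. The CD45, CD31 and TER119 antibodies of the sort mark blood cells, endothelium and red cells but not fibroblasts. Ptprc, the gene of CD45, was at 9.63 and 77.2 CPM with radiation, against 2.41 and 1.18 CPM without it. All 12 macrophage markers were higher in each irradiated library than in any unirradiated one, where 20.3% of all tested genes were. Their sums are given above, and Fcgr1 and Itgam had no counts in unirradiated 2. The sums put irradiated 2 first and irradiated 1 second, as Osm does, while for Il6 irradiated 1 was the lowest library. Lymphocyte markers summed to 19.4 and 119 CPM with radiation, against 5.77 and 5.19 CPM without it, with 7 of 7 tested genes above and Ncr1 at 0 in both unirradiated libraries. Neutrophil markers summed to 11.7 and 98.5 CPM with radiation, against 5.44 and 7.14 CPM without it, with 4 of 5 tested above and Ly6g at 0 in both unirradiated libraries. Fcgr1, Itgam, Mrc1, Cd3g, Cd4, Cd8a, Cd79b and Csf3r passed the filter through the irradiated libraries only, so the filter fixed their place above. Of the untested lymphocyte and neutrophil markers, Cd3d, Cd3e, Nkg7, Trac, Cxcr2 and Ly6g did not lie above, while Ncr1 and Retnlg did. Fibroblast markers, of cells known to make Il6, summed to 915 and 6183 CPM with radiation, against 726 and 742 CPM without it, with 6 of 10 above. Endothelial markers summed to 66.3 and 1042.5 CPM with radiation, against 43.1 and 39.3 CPM without it, with 8 of 10 above. Adipocyte markers summed to 3.78 and 83.9 CPM with radiation, against 3.75 and 4.48 CPM without it, with 0 of 1 tested above, and red cell markers to 5.85 and 35.1 CPM with radiation, against 2.02 and 4.36 CPM without it, with 2 of 3 tested above and Hba-a2 at 0 in both unirradiated libraries. The part of such cells in the Il6, Osm, Il6st, Il6ra and Socs3 values was not tested. Nor was their part in the lower Lif, Osmr and Stat3 values of irradiated 2.

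**Figure D3:**
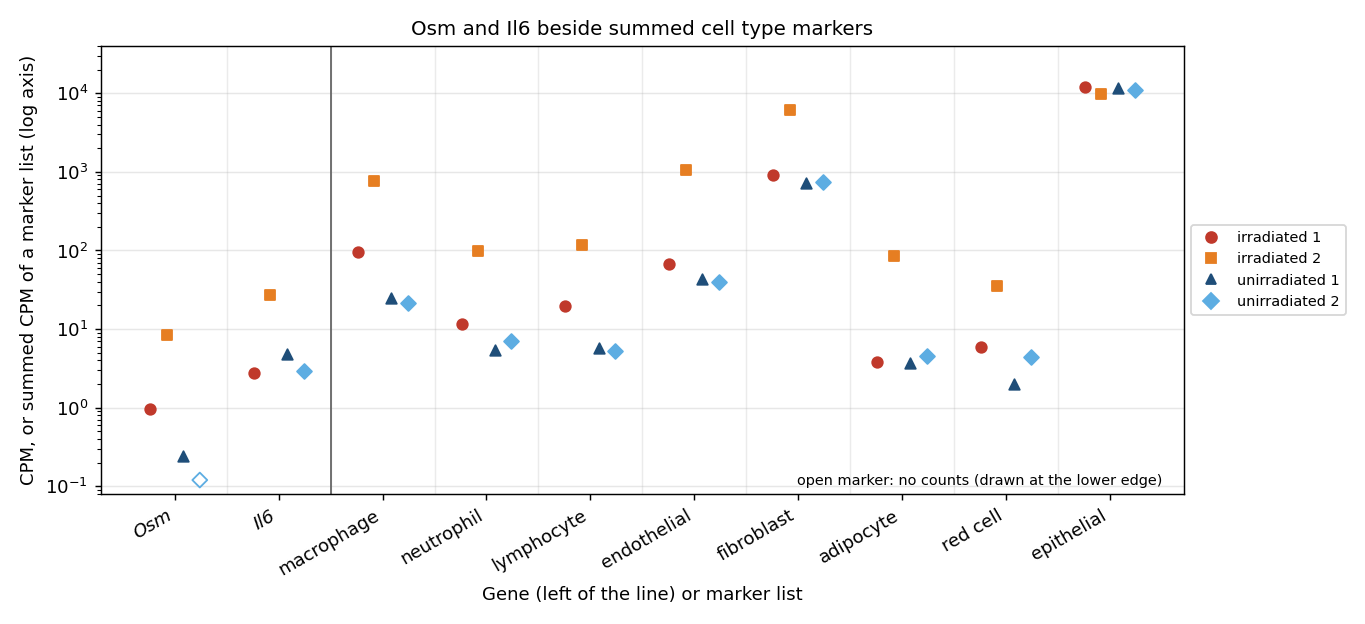
CPM of Osm and Il6 and the summed CPM of each marker list in the 4 libraries, on a log axis. Points are single libraries and the open marker is a library with no counts. Irradiated 2 is the highest library for Osm, for Il6 and for every list but the epithelial one, where it is the lowest at 9755 CPM.

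The other genes of the pathway were read from 4 lists, against all tested genes, of which 9.25% had an unadjusted p under 0.05, 20.3% lay above and 20% below. Of the 12 other ligand and receptor genes 5 were tested, and Il27, Ebi3, Cntf, Ctf2, Il31, Il27ra and Il31ra did not pass the filter. Il27ra had 179 counts (9.54 CPM) in irradiated 2 but 7 in irradiated 1, against 3 and 1 in the unirradiated libraries. Over the 5, edgeR called 0, with 0 at an unadjusted p under 0.05, DESeq2 called 0, 3 lay above and 0 below, and the median log2 fold change was 0.46. Clcf1, a ligand gene of the ciliary neurotrophic factor receptor, was at 23.8 and 14.2 CPM with radiation, against 14.1 and 13.4 CPM without it. Cntfr, that receptor's gene, was at 12.1 and 5.97 CPM with radiation, against 4.09 and 5.37 CPM without it. For Clcf1 and Cntfr irradiated 1 was the high library. Il11ra1, the interleukin-11 receptor gene, was at 38.4 and 60.6 CPM with radiation, against 38.6 and 42.3 CPM without it, and is uncertain because mice carry near-identical copies of it.

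Of 10 Janus kinase and STAT genes other than Stat3, 9 were tested, and edgeR and DESeq2 called 0. Of the 9, 2 had an unadjusted p under 0.05, both upward, 4 lay above and 2 below, and the median log2 fold change was 0.15. Over all tested genes 9.25% had an unadjusted p under 0.05, 20.3% lay above and 20% below. Jak2, a kinase gene of gp130 receptors, was at 58.2 and 72.3 CPM with radiation, against 46.5 and 50.8 CPM without it. Its groups did not overlap and lay less than 2-fold apart. Jak3 was at 94.3 and 109 CPM with radiation, against 87.6 and 93.3 CPM without it, and Stat2 at 234 and 146 CPM with radiation, against 148 and 156 CPM without it.

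The inhibitor list of 18 genes also holds Adam10, Adam17 and Ptpn11, which do not act as inhibitors alone. All 18 were tested, edgeR called 0, and 2 had an unadjusted p under 0.05, 1 in each direction. There 4 lay above and 5 below, and the median log2 fold change was 0.0313. These counts lie near the 9.25%, 20.3% and 20% of all tested genes. Socs1, a feedback inhibitor related to Socs3, was at 14.7 and 17.3 CPM with radiation, against 7.80 and 7.08 CPM without it. Both irradiated libraries lay above, with a log2 fold change of 1.11 (SE 0.21), and Socs1 was the 1 gene of the list that DESeq2 called, at adjusted p = 0.0138 against 0.489 by edgeR. Ptpn2, a phosphatase gene whose protein acts on Janus kinases and STATs, was at 87.2 and 75.6 CPM with radiation, against 104 and 105 CPM without it, and Cish, a STAT5 target of the same family as Socs3, at 37.0 and 39.8 CPM with radiation, against 45.95 and 47.7 CPM without it. Pias4 was at 53.1 and 44.1 CPM with radiation, against 40.3 and 39.2 CPM without it.

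Of 32 genes that STAT3 is known to induce, which other factors induce as well, all were tested, edgeR called 0, and 3 had an unadjusted p under 0.05, each upward. Among them 7 lay above and 5 below, and the median log2 fold change was 0.0513, beside 0.00396 over all tested genes. These counts, too, lie near the shares of all tested genes, 9.25%, 20.3% and 20%. Pim1, a survival kinase gene, was at 149 and 137 CPM with radiation, against 91.6 and 84.0 CPM without it (log2 fold change 0.71, SE 0.11), and Hp, the acute-phase gene haptoglobin, at 37.8 and 50.4 CPM with radiation, against 27.4 and 20.2 CPM without it (0.89, SE 0.22). DESeq2 called these and no other gene of the list, at adjusted p = 0.00087 and 0.0352, and edgeR gave 0.489 for each. Il4ra, a cytokine receptor gene, was at 63.9 and 94.1 CPM with radiation, against 46.5 and 49.5 CPM without it, and Hif1a at 80.3 and 96.3 CPM with radiation, against 71.8 and 70.1 CPM without it. Macrophage markers were higher in both irradiated libraries as well, and their part in the Socs1, Hp and Il4ra values was not tested.

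**Figure D4:**
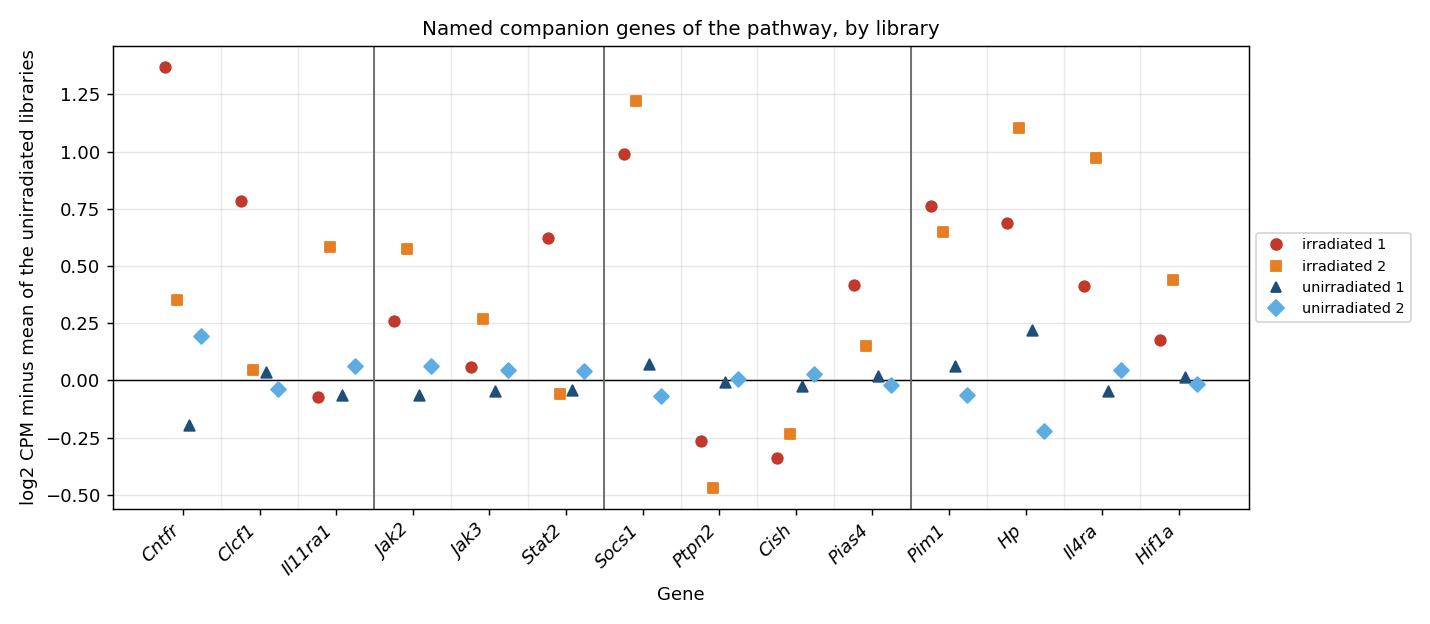
Log2 CPM, here without a prior count, of each library minus the mean of the unirradiated libraries for the named companion genes. Vertical lines stand between ligands and receptors, kinases and STATs, inhibitors, and STAT3-induced genes. Points are single libraries. Cntfr, Clcf1, Jak2, Jak3, Socs1, Pias4, Pim1, Hp, Il4ra and Hif1a have both irradiated points above both unirradiated ones, and Ptpn2 and Cish have both below.

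The genes with the most similar pattern over the 4 libraries were sought by the root mean square difference of centred log2 CPM. The search covered 12067 genes with an average log2 CPM of at least 1, leaving out predicted symbols (Gm numbers and Rik names). For Lif the nearest was Dll1, whose reporter defined the sort, at 0.0273, with Dll1 at 146 and 80.2 CPM with radiation, against 130 and 129 CPM without it, followed by Stk36 and Trpm3. In all 83 genes lay within 0.1 of Lif. For Osmr, Exph5, Ercc2 and Mfsd14a were nearest, for Stat3, Ildr1, Araf and Dis3, and for Socs3, Ccnb2, Zfp536 and Tmem241, with 739, 1092 and 605 genes within 0.1. For Il6 no gene lay within 0.1 and the nearest was Abca8a, at 0.115, with 1.21 and 13.9 CPM with radiation, against 2.26 and 1.12 CPM without it, then Camk1d and Slit2. With 4 libraries, of which 1 stands apart, such likeness is a description only.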

How the data were processed

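Poly(A) RNA was sequenced from 2 irradiated and 2 unirradiated libraries, grouped and numbered by the sample titles. The files the authors deposited hold raw counts for each gene, beside its name, position and length. STAR 2.5, HTSeq 0.6.1, DESeq2 and mm10 are named, per the submitters' processing notes; which annotation release and which options the counting used is not given in the sources used here. Per the labels' protocols the library kit was non-directional.

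Counts were tested with edgeR 4.0.16 in R 4.3.3, after filterByExpr (minimum count 10, minimum total 15) and TMM scaling, by its two-sided quasi-likelihood test, adjusted by Benjamini and Hochberg over 15993 genes at a threshold of 0.05. CPM values use TMM library sizes, and log2 CPM a prior count of 2. The alternatives were DESeq2 1.42.0 and limma-voom (limma 3.58.1) on the same genes, other scalings and filters, the replicate number as a block and leaving out each library. With 2 libraries a group, exact permutation gives no p below 0.333. The steps were tested on simulated data. Named are all 10 members, the 4 companion genes per list with the smallest p, as none passed, and the 3 most alike genes. Of the companion genes so chosen, some are not reported here. Members and lists were chosen with earlier results of these data known.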

Additional observations from a re-analysis of the deposited data

How the results depend on the processing

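Whether a member passed depended on the fit. edgeR called 0 genes higher and 0 lower. Without a filter it called 1338 higher and 105 lower over 27538 genes (4.86% and 0.381%), among them 3 members, Il6, Osm and Il6st, and 9 companion genes, all higher. DESeq2 called 437 and 56, with 1 member and 3 companion genes higher. The replicate number as a block called 2 genes, Bpifa2 and Chia1, both higher and neither a member. The labels do not tie same-numbered libraries together, and their deviations correlated at -0.0992 over genes. Leaving out 1 library gave 0 to 2713 genes higher and 0 to 2355 lower, 0 to 5 members higher and 0 to 3 lower, and 0 to 22 companion genes higher and 0 to 7 lower, with 0 in each case when an unirradiated library was left out. The log2 fold change then ran from -0.53 to 2.79 for Il6, -0.66 to 0.20 for Lif, -0.0215 to 0.85 for Il6st, -0.21 to 0.21 for Lifr, -0.44 to 0.00925 for Osmr, -0.27 to 0.28 for Socs3, -0.0874 to 0.57 for Il11ra1 and -0.0752 to 0.61 for Stat2. Those of Il11 (0.51 to 1.06), Osm (2.80 to 9.42, the highest without unirradiated 1), Il6ra (0.33 to 0.63) and Stat3 (-0.39 to -0.13) kept their sign when any library was left out, and no member changed sign under another scaling, filter, tool or the block. Osm did not pass the stricter filter. The causes of these changes were not tested. Depth limits Il11, with 15 to 35 counts a library, and Osm, with 0 to 19 outside irradiated 2.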
